A study of Mus musculus with 8 samples.

Results

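Loss of p53 was compared directly with loss of pRb in newborn mouse skin, in 4 of the 8 microarrays of the study: both arrays titled pRb+/+;p53-/- (called p53_null here) against both titled pRb-/-;p53+/+ (called pRb_null). All 22690 probe sets of the array were compared, and no control array enters the difference. Each array was hybridized with total RNA of newborn whole skin, pooled from 3 animals of 1 genotype, and all animals were FVB, an inbred albino strain. The other arrays were 2 titled Control, whose genotype is not given further, and 2 titled pRb-/-;p53-/- (double_null). All 8 arrays were used for the spread between arrays of a genotype. The scores of the control and double_null arrays are given beside the difference. The study's title places the inactivation of both genes in stratified epithelia, whereas the RNA came from the whole skin. Neither the Cre driver nor the deleted exons are named in the sources used here. Since it is also not stated that the 2 pools of a genotype came from separate animals, p-values measure only how far these arrays lie apart, a spread that may be technical.

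pRb, the product of Rb1, binds E2F transcription factors and holds back the genes of S phase, and its loss lets cells enter the cycle and impairs their exit from it in differentiating tissue such as muscle and epidermis. p53 is a transcription factor that is activated by damage and other stress and drives arrest genes such as Cdkn1a as well as apoptosis genes. Newborn skin is in the first growth phase of the hair follicle, so its RNA includes hair keratins and keratin-associated proteins, and whole skin also contains dermis, fat, mast cells and the thin muscle sheet beneath the fat.

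Each deposited value is a score standardized within its probe set, so that the 8 arrays together have mean 0 and SD 1. A difference is therefore in units of a probe set's own SD over the arrays, is always given as p53_null minus pRb_null, and can reach at most 2.65 for 2 arrays against 2. Scores hold neither an expression level nor a fold change, so whether a marker is expressed in this skin cannot be read from them, and levels of different genes cannot be compared. In bulk RNA, fewer cells of a type and less RNA per cell cannot be told apart. Median scores of the 4 arrays compared lay between −0.10 and 0.23. Across probe sets the arrays correlated within p53_null with r = 0.337 and within pRb_null with r = 0.118, and between these genotypes r was from −0.323 to −0.194. Scores of a probe set sum to 0 over the arrays, which by itself pushes correlations between arrays below 0. Between arrays of the other pairs of genotypes r was from −0.388 to 0.093.

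Over the whole array, 13 probe sets differed between the 2 single losses at an adjusted p under 0.05 in limma's linear model without variance moderation. Of these, 3 rose in p53_null relative to pRb_null (0.0132% of the probe sets) and 10 fell (0.0441%). At an unadjusted p under 0.05, 1545 probe sets scored higher in p53_null (6.81%) and 2136 lower (9.41%). With each array's median set to 0 these counts were 1879 higher and 1743 lower. The share of lower ones among them was 58.0% as deposited and 48.1% with the medians at 0, and the median difference over all probe sets was −0.26 and −0.03. Groups that did not overlap were found for 5125 probe sets higher in p53_null (22.6%) and 7212 lower (31.8%). The call at the adjusted threshold was fragile: leaving out any 1 of the 8 arrays gave 0 called probe sets, and limma's moderated test called 0, with 4175 at an unadjusted p under 0.05 and a lowest adjusted p of 0.24. The unmoderated test was preferred with earlier results of both tests on these data known.

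The genes that rose in p53_null relative to pRb_null were Tnnc1, Rxylt1 and Usp19. Tnnc1, the calcium-binding troponin C of slow and cardiac muscle, scored 1.39 and 1.33 in p53_null and −1.14 and −1.24 in pRb_null, a difference of 2.55 ± 0.05 (SE, n = 2 arrays per group; limma adjusted p = 0.0084). Its scores of 0.20 and 0.28 in control lay between those of the single losses. Rxylt1, a glycosyltransferase that extends the sugar chain of dystroglycan, scored 1.56 and 1.53 in p53_null and −1.05 and −0.89 in pRb_null (2.52 ± 0.07, adjusted p = 0.018), with control at −0.26 and −0.36. Usp19, a deubiquitinase, was at 0.11 and 0.15 in p53_null and −1.38 and −1.54 in pRb_null (1.59 ± 0.07, adjusted p = 0.041). Control was higher than either at 1.10 and 1.19, so for Usp19 the pRb_null arrays stood farther from control.

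Among the genes that fell in p53_null relative to pRb_null were 2 of the epidermis. Gjb6, the connexin 30 of gap junctions between keratinocytes, scored −1.25 and −1.51 in p53_null and 0.98 and 1.08 in pRb_null (−2.41 ± 0.10, adjusted p = 0.041), with control at 0.66 and 0.63. Slurp1, a secreted protein of the upper epidermis, scored −1.46 and −1.61 in p53_null and 0.27 and 0.19 in pRb_null (−1.76 ± 0.07, adjusted p = 0.041), with control at 0.37 and 0.26. For both genes pRb_null lay close to control and p53_null far below. Cap1, an actin-binding protein that recycles actin monomers, was measured by 2 probe sets and fell by both, at −2.40 ± 0.07 (adjusted p = 0.020) and −2.29 ± 0.10 (adjusted p = 0.041). The remaining calls were the fast muscle myosin Myh1, described with muscle, and 5 probe sets of 4 genes of the hair shaft and its matrix, Krtap16-3, Krtap19-9b, Krtap6-5 and Gprc5d.

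**Figure D1:**
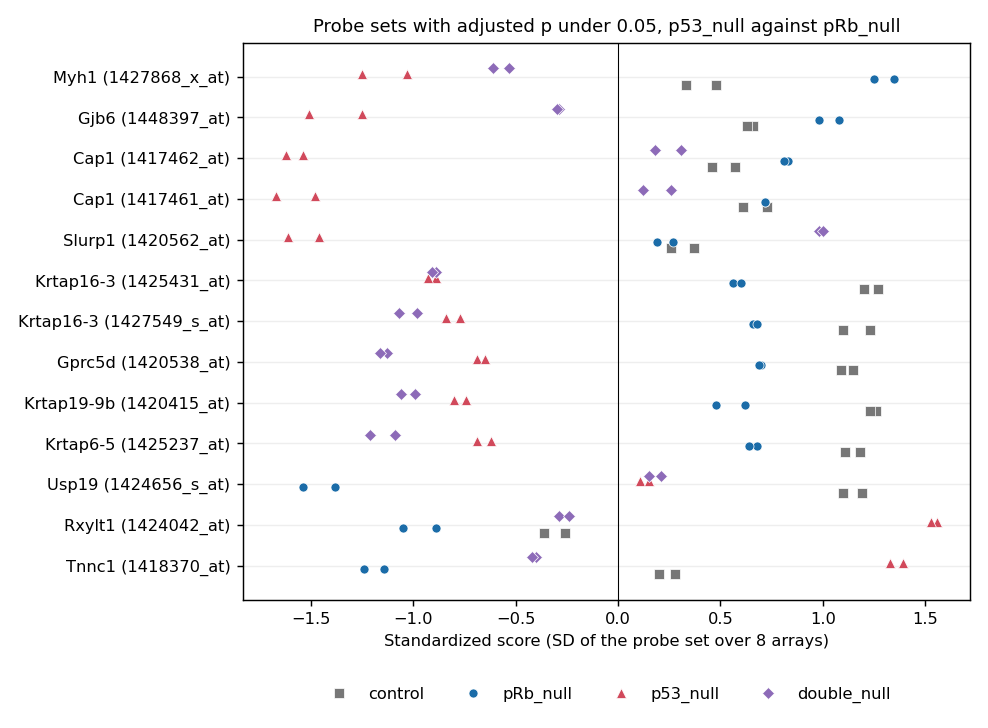
Standardized scores (horizontal axis, in SD of the probe set over the 8 arrays) of the 13 probe sets with a limma adjusted p under 0.05, each point being 1 array and each symbol a genotype. In all 13 the arrays of a genotype lie close together, and in the hair genes control is highest and double_null and p53_null are lowest.

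Hair keratin and root sheath genes scored lower in p53_null than in pRb_null almost throughout, and most keratin-associated proteins did too. At an unadjusted p under 0.05, 19 of 20 hair keratin and root sheath probe sets were lower and 0 higher, and the median difference was −1.03. Of 27 keratin-associated protein probe sets, 18 were lower and 0 higher, with a median of −1.08, and 3 of them passed the adjusted threshold. The same counts over all probe sets were 9.41% lower and 6.81% higher. Of the keratin-associated proteins that did not pass, Krtap5-1 (1.65 ± 0.70 and 1.09 ± 0.85) and Krtap5-4 (0.60 ± 0.90) had positive differences. Krtap12-1 was at 1.07 ± 0.58 and −0.04 ± 0.28. Krtap16-3, a matrix protein that packs between keratin filaments of the hair shaft, scored −0.89 and −0.93 in p53_null and 0.56 and 0.60 in pRb_null (−1.49 ± 0.03, adjusted p = 0.0084). Its second probe set fell by 1.47 ± 0.06 (adjusted p = 0.041). Krtap19-9b scored −0.74 and −0.80 against 0.48 and 0.62 (−1.32 ± 0.06), and Krtap6-5, which was not in the list, −0.62 and −0.69 against 0.68 and 0.64 (−1.31 ± 0.06), each with an adjusted p of 0.041. Gprc5d, an orphan receptor known from the keratinizing zone of the hair, scored −0.69 and −0.65 against 0.70 and 0.69 (−1.37 ± 0.03, adjusted p = 0.0084).

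The 3 keratin-associated protein genes that passed the adjusted threshold are printed with the 100 bases before their start site, because they moved together and each holds the letters TATAAA, by which a TATA box is usually written. Sequences are from RefSeq, build GRCm38.p6, all on the minus strand of chromosome 16 (chr16:88962874-88962973, chr16:88932265-88932364 and chr16:89047900-89047999, in the order printed), 5′ to 3′ along the gene, with the letters TATAAA in capitals. They begin 30, 31 and 32 bases before the start site.
Krtap16-3: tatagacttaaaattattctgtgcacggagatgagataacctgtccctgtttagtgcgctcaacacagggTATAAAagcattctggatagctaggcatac
Krtap19-9b: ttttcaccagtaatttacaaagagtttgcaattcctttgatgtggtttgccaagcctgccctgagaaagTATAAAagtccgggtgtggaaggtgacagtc
Krtap6-5: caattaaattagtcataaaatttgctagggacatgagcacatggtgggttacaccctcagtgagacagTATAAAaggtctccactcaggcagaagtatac

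TATAAA was searched on the gene's strand in windows of 250 bases before to 50 after the start site, a motif chosen after the values were seen. It was present in 15 of 21 keratin-associated protein genes with a promoter entry (71.4%) and in 8 of 15 hair keratin and sheath genes (53.3%). Over all 27025 genes with a promoter entry the share was 9.77%. A match is a description of the letters and not of a site in use.

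Among the keratins, Krt35 and Krt32, type I keratins of the hair shaft, differed by −1.02 ± 0.10 (limma adjusted p = 0.091) and −1.39 ± 0.15 (adjusted p = 0.10). Krt83, a type II partner, differed by −1.26 ± 0.16, and Tchh, the trichohyalin of the inner root sheath, by −0.97 ± 0.14. The inner root sheath keratin Krt72 scored −0.69 in both p53_null arrays and 0.73 and 0.75 in pRb_null, and the companion layer keratin Krt75 −0.30 and −0.36 against 1.03 and 0.68. Krt36 had the largest difference of the list, −1.85 ± 0.27. The exception was Krt84, at 0.96 ± 0.53, which did not pass. As a list, the hair keratins had median scores of −0.42 and −0.34 in the p53_null arrays and 0.65 and 0.66 in the pRb_null arrays, beside 0.94 and 1.09 in control and −1.46 and −1.10 in double_null. Thus pRb_null was below control and above p53_null in each array, without overlap, and the double loss was lowest. Genes of these families resemble each other in sequence, and a probe can bind transcripts of several members, which makes the value of a single member uncertain. With limma's moderated test 1 of the 20 hair keratin probe sets and 0 of the 27 keratin-associated protein probe sets had an unadjusted p under 0.05, and quantile normalization gave 12 of 20 for the hair keratins.

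Regulators of the follicle had 12 of 49 probe sets lower in p53_null and 1 higher, with a median of −0.65. The lower count was 5 with limma's moderated test and 7 with 1 probe set per gene. The transcription factors held 7 of the lower ones among 17 probe sets. Ovol1, a zinc finger repressor of epidermal and hair differentiation, scored −1.42 and −1.36 in p53_null and 1.27 and 0.99 in pRb_null (−2.52 ± 0.31, limma adjusted p = 0.11), and its second probe set differed by −1.99 ± 0.52. The homeobox genes Msx2 and Dlx3, which act in the hair matrix, differed by −1.03 ± 0.13 and −1.58 ± 0.23. The second Dlx3 probe set was at −0.79 ± 0.42. Notch1 differed by −1.14 ± 0.15 by 1 probe set and 0.03 ± 0.88 by the other.

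**Figure D2:**
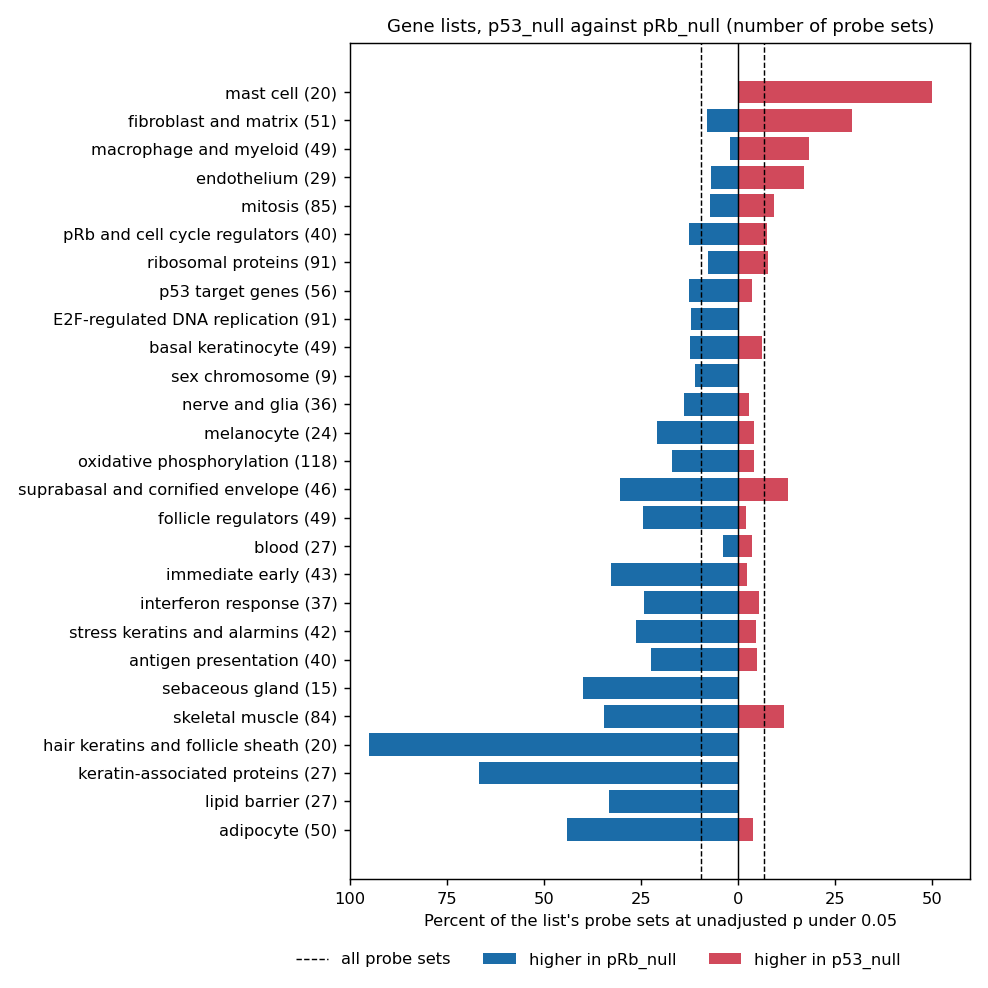
Share of each gene list's probe sets (number in brackets) at an unadjusted limma p under 0.05, those higher in pRb_null to the left and those higher in p53_null to the right, in percent, with dashed lines at the shares of all 22690 probe sets. Hair keratins (19 of 20 higher in pRb_null), keratin-associated proteins (18 of 27) and adipocyte genes (22 of 50) reach farthest left, and mast cell genes (10 of 20 higher in p53_null) farthest right.

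Genes of fat and of lipid handling were the next group that scored lower in p53_null. Of 50 adipocyte probe sets, 22 were lower and 2 higher, with a median of −1.30. All but 1 of the lower ones belonged to the white and shared markers, where 21 of 33 were lower and 0 higher (median −1.68). Adipoq, the adipokine adiponectin, scored −1.39 and −1.56 in p53_null and 0.74 and 1.09 in pRb_null (−2.39 ± 0.18, limma adjusted p = 0.079), with control at −0.19 and 0.02. Cidec, a protein of the lipid droplet, scored −1.45 and −1.28 against 0.94 and 0.69 (−2.18 ± 0.13, adjusted p = 0.072), with control at −0.35 in both arrays. In each of these genes control lay between the single losses, and no group overlapped another of the 3.

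The same order was seen over the white and shared markers, whose median score was −1.22 and −1.14 in p53_null, below control at −0.31 and −0.30, and 0.62 and 0.53 in pRb_null, above it. Double_null, at 1.04 and 0.67, lay on the side of pRb_null. Further members were Plin4, a droplet coat protein (−2.20 ± 0.21), the hormone-sensitive lipase Lipe (−1.79 ± 0.16) and the adipokine Retn (−1.75 ± 0.20). Pck1, the glyceroneogenic enzyme, differed by −2.03 ± 0.20 by 1 probe set and 0.47 ± 0.99 by the other. Car3, a carbonic anhydrase abundant in fat and slow muscle, differed by −2.38 ± 0.20 and −2.22 ± 0.35. Brown fat and thermogenic genes had 2 of 17 probe sets higher and 1 lower, with a median of −0.59. Ucp1, the uncoupling protein of brown fat, scored 0.53 and 0.59 in p53_null and −1.01 and −1.06 in pRb_null (1.59 ± 0.09, adjusted p = 0.060). The other higher probe set was one of Ucp3 (0.42 ± 0.14), and the second Ucp3 probe set was at −0.77 ± 0.50. The lower one was Cox7a1, a subunit of cytochrome c oxidase (−1.19 ± 0.41), and Cidea, Elovl3 and Cox8b, at −2.05 ± 0.74, −0.77 ± 0.29 and −0.59 ± 0.67, did not pass.

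Enzymes and transporters of the epidermal lipid barrier also scored lower, with 9 of 27 probe sets lower and 0 higher (median −1.15). Sult2b1, which sulfates cholesterol in the granular layer, differed by −2.46 ± 0.36 and Slc27a4, a fatty acid transporter, by −1.86 ± 0.35. Elovl7, an elongase of fatty acids, differed by −2.49 ± 0.41 and, by its other probe set, −1.89 ± 0.86. Abhd5, a lipase cofactor needed for the barrier, differed by −2.01 ± 0.39 and −1.19 ± 0.74. The count of lower probe sets was 4 without pRb_null replicate 1 and 5 without p53_null replicate 2. Of 15 sebaceous gland probe sets, 6 were lower and 0 higher, among them the elongase Elovl6 at −1.58 ± 0.21 and −0.77 ± 0.18, the droplet protein Plin2 at −2.10 ± 0.46 and the adipogenic receptor Pparg at −2.09 ± 0.63. Fads2, a fatty acid desaturase, was at −0.63 ± 0.17 and 1.54 ± 0.56. That list shares 4 genes with others, and its count was 1 without p53_null replicate 2 or pRb_null replicate 1 and 2 without p53_null replicate 1.

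**Figure D3:**
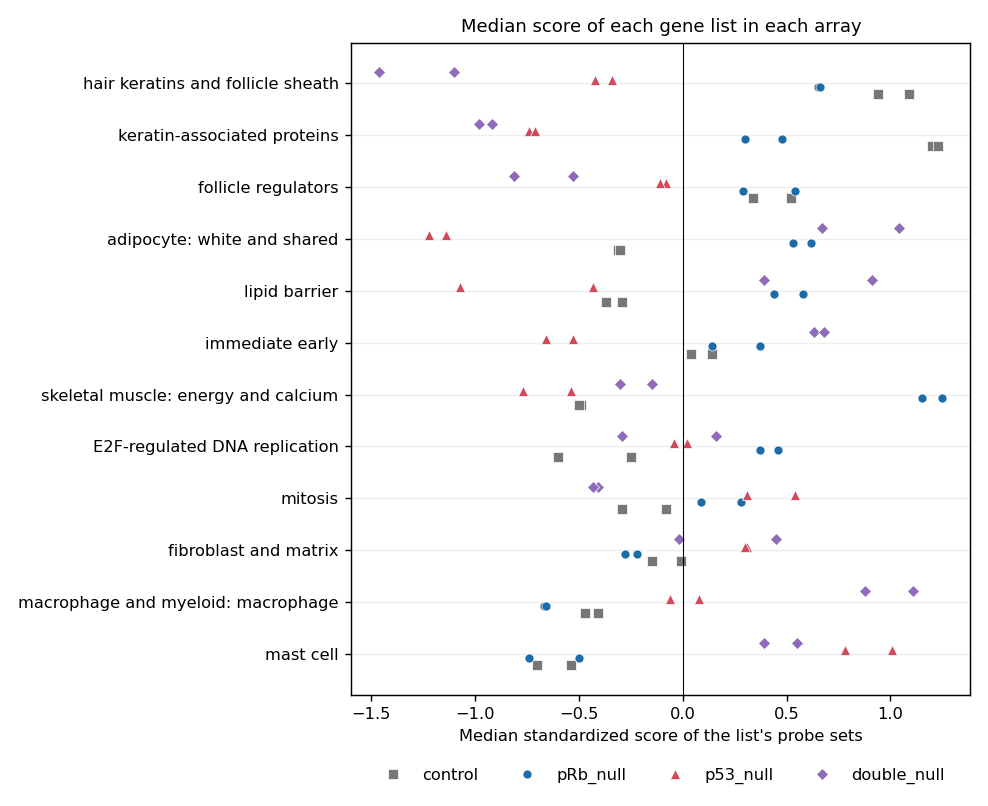
Median standardized score of each list's probe sets in each of the 8 arrays, 1 point per array and 1 symbol per genotype. In the white adipocyte markers the p53_null arrays are at −1.22 and −1.14 and the pRb_null arrays at 0.62 and 0.53, and in the mast cell list the order is turned, with p53_null at 1.01 and 0.78 and pRb_null at −0.50 and −0.74.

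Skeletal muscle genes differed in both directions. Of 84 probe sets, 29 were lower in p53_null and 10 higher, with a median of −0.96, and the genes of energy supply and calcium handling went one way, with 16 of 22 lower and 0 higher (median −1.92). Ryr1, the calcium release channel, scored −0.69 and −0.89 in p53_null and 1.25 and 1.45 in pRb_null (−2.14 ± 0.28, limma adjusted p = 0.12). The fast myosin heavy chain Myh1 scored −1.03 and −1.25 in p53_null and 1.25 and 1.35 in pRb_null and fell by 2.44 ± 0.11 (adjusted p = 0.041). Its other probe sets were at −2.21 ± 0.51 and 1.07 ± 0.73, so the probe sets of Myh1 did not all share a direction. Actn3, the α-actinin of fast fibres, differed by −2.55 ± 0.28.

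Against these, Tnni1, the slow troponin I, scored 1.20 and 1.51 in p53_null and −1.15 and −1.37 in pRb_null (2.62 ± 0.16, limma adjusted p = 0.076), with control at 0.05 and 0.00. The embryonic myosin heavy chain Myh3 scored 1.38 and 1.17 against −1.06 and −0.84 (2.23 ± 0.17, adjusted p = 0.079). The embryonic and atrial light chain Myl4 differed by 2.50 ± 0.19 by 1 probe set and −0.43 ± 1.20 by the other. Tnnc1, Tnni1 and Myh3 were thus higher in both p53_null arrays than in both pRb_null arrays, opposite to Ryr1 and Actn3.

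To describe both directions, 29 probe sets of contractile and calcium-handling isoforms were grouped by fibre type, a grouping made after the values were seen, which supports nothing by itself. The 15 probe sets of fast and adult fibre genes had a median difference of −2.01, with 9 lower and 0 higher. The 14 of slow, embryonic and cardiac isoforms had a median of 0.69, with 7 higher and 1 lower. Also on the fast side were Myh4 (−2.18 ± 0.36), the fast troponin I Tnni2 (−2.48 ± 0.45, −2.02 ± 0.54 and −1.24 ± 0.79) and the calcium buffer Pvalb (−2.24 ± 0.57). On the other side were Tnnt1, the slow troponin T (1.85 ± 0.26), and Tnnt2, the cardiac and embryonic troponin T (2.32 ± 0.25 and 1.81 ± 0.63). Of those 14, 7 had negative differences like the fast isoforms. They were all 3 probe sets of the slow light chain Myl3 (−1.67 ± 0.68, −1.29 ± 1.14 and −0.97 ± 0.93), the slow light chain Myl2 (−2.04 ± 0.72), the slow heavy chain Myh7 (−0.71 ± 0.62), the perinatal heavy chain Myh8 (−0.48 ± 0.73) and the second Myl4 probe set. Actc1, the cardiac actin that embryonic muscle also uses, was outside the muscle list and scored 1.61 and 1.41 in p53_null and −1.01 and −1.07 in pRb_null (2.55 ± 0.12, adjusted p = 0.051). Myosin genes are similar in sequence, so their probe sets may share signal. The count of lower muscle probe sets was 16 without either p53_null array. How much muscle tissue each pool held was not tested.

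**Figure D4:**
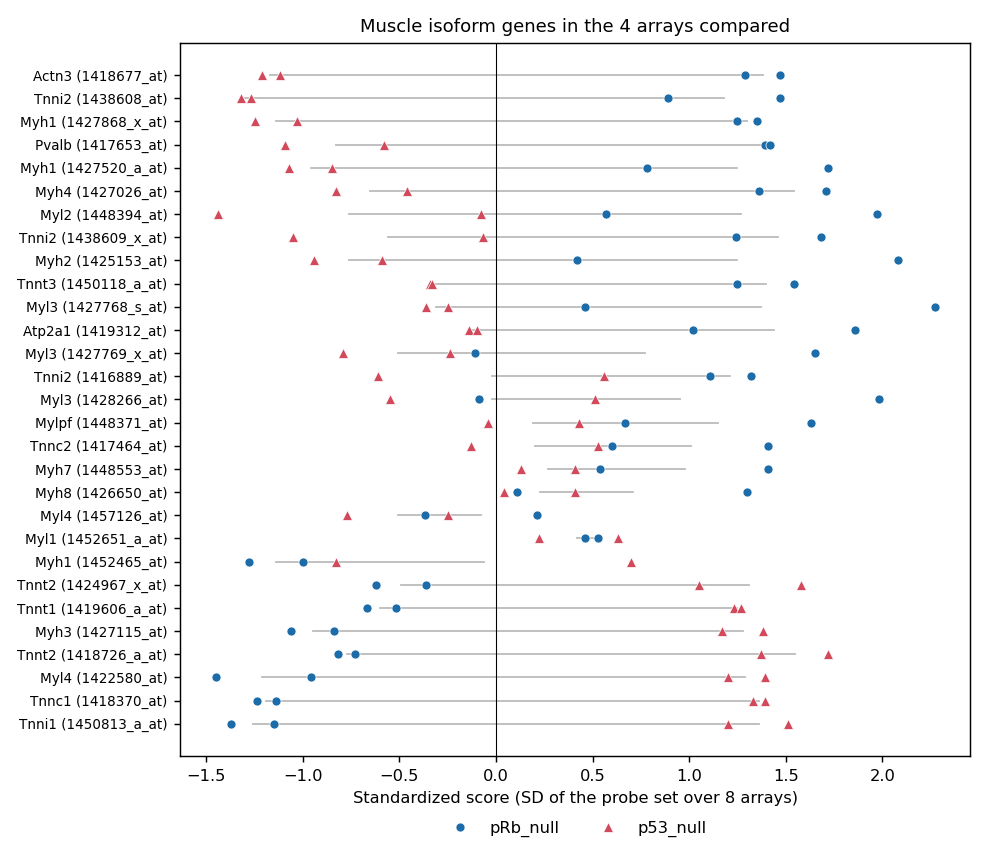
Standardized scores of 29 muscle isoform probe sets in the 4 arrays compared, with a grey line joining the 2 genotype means, ordered by the difference. Fast isoforms such as Actn3 and Tnni2 have the pRb_null arrays on the right. Tnnc1, Tnni1, Myh3 and the Myl4 probe set with the larger difference have the p53_null arrays on the right.

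The epidermis showed opposite directions within the cornified envelope, the cross-linked protein shell of the outermost cells. Of 46 suprabasal and envelope probe sets, 14 were lower in p53_null and 6 higher. Spinous and granular genes were lower in 8 of 20 probe sets and higher in 0, among them Slurp1, Krt77, a keratin of the upper epidermis and sweat ducts (−1.81 ± 0.18), and the kallikrein protease Klk7 (−2.43 ± 0.44). Of the other keratins among the 46, Krt2 was lower (−1.52 ± 0.36). Krt10 and Krt1 had positive differences, at 1.0 ± 0.93 and 0.7 ± 0.82, and did not pass. The envelope precursors divided evenly, with 6 lower and 6 higher of 26, and they divided by gene family, as was seen after the values were known. All 6 higher probe sets were of late cornified envelope genes of the Lce1 group. Lce1a2 scored 1.51 and 1.04 in p53_null and −1.35 and −1.24 in pRb_null (2.57 ± 0.22, limma adjusted p = 0.090), with control at −0.24 and −0.18.

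The other Lce1 genes with an unadjusted p under 0.05 were Lce1i (1.61 ± 0.15), Lce1f (2.42 ± 0.30), Lce1h (1.57 ± 0.25), Lce1b (2.40 ± 0.41) and Lce1d (2.35 ± 0.54). The second Lce1f probe set was at 1.77 ± 0.91 and those of Lce1a1 at 1.99 ± 0.84, 1.81 ± 0.75, and Lce1g at 1.74 ± 0.63, none of which passed. Lce1l, outside the list, was at 2.0 ± 0.51, so every named Lce1 probe set on the array had a positive difference. Small proline-rich genes, precursors that bridge other envelope proteins, pointed to pRb_null. Sprr1a scored −0.34 and −0.57 in p53_null and 1.08 and 0.87 in pRb_null (−1.43 ± 0.21, adjusted p = 0.14), and Sprr1b, Sprr2d and Sprr2h differed by −1.57 ± 0.34, −1.15 ± 0.20 and −1.71 ± 0.29. Sprr2f, Sprr2i and Sprr3, at −0.07 ± 0.64, −0.88 ± 0.94 and −1.47 ± 0.83, did not pass. Rptn, the envelope protein repetin, was at −1.44 ± 0.17, with 2 further probe sets at 0.94 ± 0.47 and −0.79 ± 1.10. Both families are clusters of near-identical genes, and several of the Lce probe sets carry the suffix _x_at, which marks probes that may bind several transcripts.

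**Figure D5:**
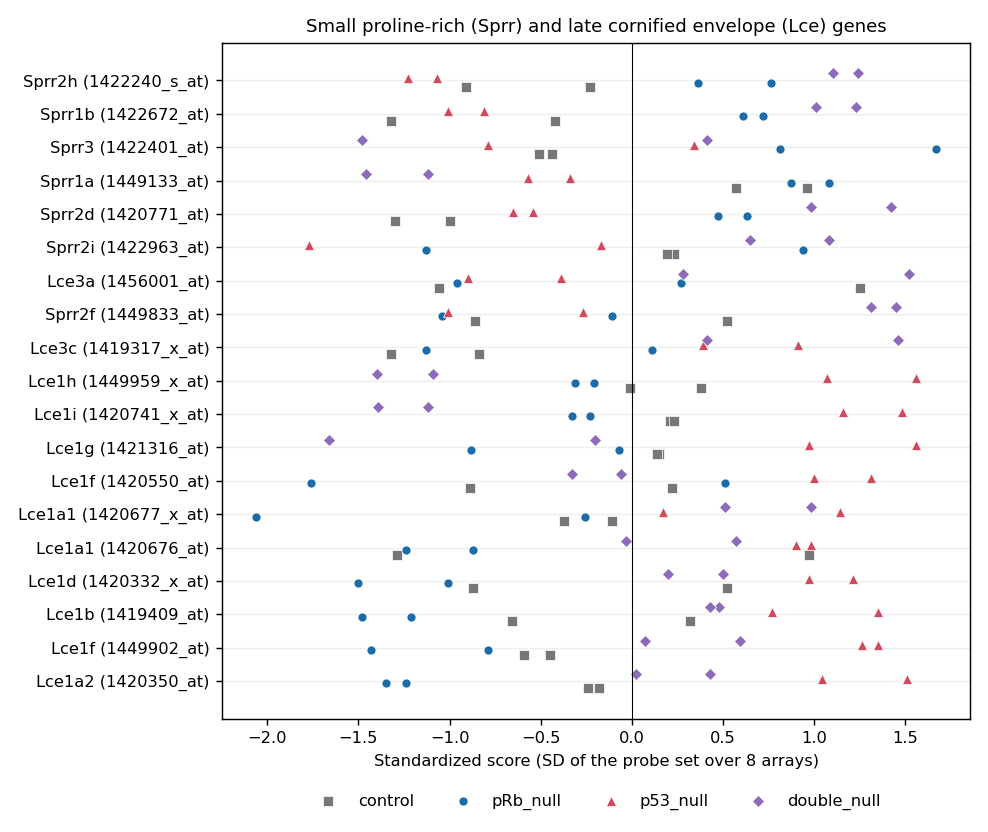
Standardized scores of the small proline-rich and late cornified envelope probe sets in all 8 arrays, 1 point per array and 1 symbol per genotype. The p53_null arrays are to the right of the pRb_null arrays for the Lce1 genes and to the left for Sprr1a, Sprr1b, Sprr2d and Sprr2h.

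Stress keratins and alarmins, genes of wounded or hyperproliferative epidermis, had 11 of 42 probe sets lower in p53_null and 2 higher (median −0.80). Krt16 and Krt17, wound-induced keratins, differed by −1.0 ± 0.14 and −1.46 ± 0.28, with the second Krt17 probe set at −1.39 ± 0.54, and Ereg, a ligand of the EGF receptor, by −1.32 ± 0.26. The exceptions were the neutrophil and keratinocyte alarmin S100a8 (1.06 ± 0.08) and the nuclear cytokine Il33 (1.68 ± 0.27). Without either p53_null array 5 were lower, and without pRb_null replicate 2 there were 7. Immediate early genes, which respond within minutes to growth factors or handling, had 14 of 43 lower and 1 higher (median −0.73). Junb, an AP-1 subunit, scored −1.05 and −1.36 in p53_null and 1.18 and 1.16 in pRb_null (−2.38 ± 0.16, limma adjusted p = 0.079), with control at 0.68 and 0.47. Zfp36, which destabilizes cytokine mRNAs, differed by −2.32 ± 0.25, Fosb by −2.37 ± 0.39 and Ier5 by −2.12 ± 0.37, −1.29 ± 0.37 and 0.22 ± 0.80. That count was 8 without any 1 of the 4 arrays compared and 9 with array medians set to 0. Time from death to preservation was not tested.

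Basal keratinocyte genes were near the background, with 6 of 49 lower and 3 higher (median −0.37). Egfr, the EGF receptor, differed by −2.25 ± 0.21 and −1.78 ± 0.22 by 2 of its 5 probe sets, and the P-cadherin gene Cdh3 by −2.13 ± 0.21. Igfbp3 and Igfbp2, binding proteins of insulin-like growth factors, lay the other way at 2.36 ± 0.39 and 1.87 ± 0.36. The lower count was 3 without either p53_null array or without pRb_null replicate 1.

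Mast cell genes scored higher in p53_null. Of 20 probe sets 10 were higher and 0 lower, with a median of 1.65. Cma1, the chymase of connective tissue mast cells, scored 1.10 and 1.38 in p53_null and −0.95 and −1.29 in pRb_null (2.36 ± 0.16, limma adjusted p = 0.079), with control at −0.61 and −0.65. Tpsab1, a tryptase, scored 1.43 and 1.54 against −0.47 and −0.84 (2.14 ± 0.18, adjusted p = 0.085). For both genes control lay close to pRb_null, and p53_null stood apart.

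The tryptase Tpsb2 differed by 2.30 ± 0.20 by 1 probe set and −0.27 ± 1.03 by the other, and the carboxypeptidase Cpa3 by 2.20 ± 0.20. Hdc, which makes histamine, differed by 2.05 ± 0.23 and 2.31 ± 0.41, and Mcpt4, a second chymase, by 1.87 ± 0.36. Gata2, the transcription factor of mast cells, was at 2.33 ± 0.55 and 1.32 ± 0.89. Members with negative differences, none of which passed, included Fcer1a (−1.84 ± 0.85), the IgE receptor chain, and the mucosal proteases Mcpt1 (−1.28 ± 0.96) and Mcpt2 (−1.34 ± 0.72). The list's median was 1.01 and 0.78 in p53_null and −0.50 and −0.74 in pRb_null, beside −0.70 and −0.54 in control and 0.39 and 0.55 in double_null. Arrays without p53 were thus above those with it. The count was from 8 to 11 with any array left out.

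Macrophage and myeloid genes had 9 of 49 probe sets higher and 1 lower (median 0.42). Cd163, a scavenger receptor of tissue macrophages, scored 1.26 and 0.87 in p53_null and −1.14 and −0.93 in pRb_null (2.10 ± 0.20, limma adjusted p = 0.093), with control at −0.79 and −0.80. The complement gene C1qb differed by 1.51 ± 0.31, 1.56 ± 0.63 and 1.37 ± 0.95, the adaptor Tyrobp by 1.76 ± 0.36, and Sirpa by 1.39 ± 0.23, 0.42 ± 0.20 and 0.61 ± 0.56. Csf1r, the receptor for the macrophage growth factor, was the exception at −1.80 ± 0.23, −0.70 ± 0.93 and −0.17 ± 0.83. The higher count was 5 without p53_null replicate 2. Genes of class I antigen presentation lay the other way, with 7 of 26 lower and 0 higher. H2-K1 differed by −2.41 ± 0.19, −2.06 ± 0.53, −1.91 ± 0.51 and −1.77 ± 0.57. H2-D1 was at −1.24 ± 0.25 and −0.90 ± 0.25 by 2 of its 9 probe sets, and class I genes are too alike for probes to separate them well.

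Interferon response genes had 9 of 37 lower and 2 higher (median −0.78), with Ifi27l2a at −2.0 ± 0.15, Usp18, which damps interferon signalling, at −2.28 ± 0.34, and Ifit3, an antiviral effector, at −2.34 ± 0.45. The lower count was 5 without p53_null replicate 1 or pRb_null replicate 1 and 4 without p53_null replicate 2. For antigen presentation as a whole, 9 of 40 were lower and 2 higher. That count was 3 and 4 without p53_null replicates 1 and 2, 4 without pRb_null replicate 1 and 5 without either control array. It was also 5 with array medians set to 0, with quantile normalization and with limma's moderated test.

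Fibroblast and matrix genes scored higher in p53_null in 15 of 51 probe sets and lower in 4, with a median of 0.61. Dlk1, a membrane protein of preadipocytes and embryonic mesenchyme, scored 1.13 and 0.99 in p53_null and −1.49 and −1.31 in pRb_null (2.46 ± 0.27, limma adjusted p = 0.10), with control at 0.28 and 0.70. The fibrillar collagen Col5a2 differed by 1.83 ± 0.40 and 2.17 ± 0.64 and the cross-linking oxidase Lox by 2.28 ± 0.59, 1.78 ± 0.50 and 0.53 ± 1.02. Pdgfra, the receptor that marks dermal fibroblasts, was at 2.24 ± 0.47 and 0.01 ± 0.68. Fn1, fibronectin, lay the other way at −2.26 ± 0.56 and −0.77 ± 1.11. The higher count was 7 and 6 without p53_null replicates 1 and 2, and 8 and 6 without pRb_null replicates 1 and 2, so it depended on each of the 4 arrays compared.

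Genes that pRb and p53 are known to control were counted in the same way. Rb1 itself had 1 probe set, at 0.50 and 0.22 in p53_null and −0.71 and 0.44 in pRb_null, and the groups overlapped (limma adjusted p = 0.73). The difference was −0.08 without pRb_null replicate 1. Whether this probe set lies within the deleted part of Rb1 is not stated, and skin cells outside the epithelium keep the gene by the study's title, so it checks no label. Trp53 was not analysed here. Of 91 probe sets of E2F-regulated DNA replication genes, 11 were lower in p53_null, a share of 12.1% against 9.41% over all probe sets. The higher ones were 0, against 6.81% over all probe sets. The median was −0.30, beside −0.26 over all probe sets, so the lower share and the median were near the background. Pole, the leading-strand polymerase, scored −1.39 and −0.61 in p53_null and 1.68 and 0.94 in pRb_null (−2.31 ± 0.41, limma adjusted p = 0.15). Ccne1, the cyclin E of S phase entry, differed by −1.97 ± 0.40, the helicase subunit Mcm5 by −2.13 ± 0.51 and the polymerase subunit Pole2 by −1.86 ± 0.60. Members with positive differences, none of which passed, included Hells (1.80 ± 0.68), Rpa3 (1.61 ± 0.72) and Rfc3 (1.01 ± 0.43 and 0.59 ± 0.38). Usp1 was at 1.83 ± 0.80, 0.84 ± 0.59 and 0.75 ± 0.90. The count of lower probe sets was 2 and 6 without p53_null replicates 2 and 1, 7 without either pRb_null or either control array, and 6 with array medians set to 0, where the median was −0.07. With limma's moderated test it was 14 at an unadjusted p under 0.05.

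The letters by which E2F motifs are usually written, TTTCCCGC, TTTGGCGC, TTTCGCGC and TTTGCCGC, were searched on both strands of the 300-base promoter windows. They were present in 17 of 42 measured replication genes with a promoter entry (40.5%) and in 704 of all 27025 genes with one (2.6%). The list was drawn up as E2F-regulated genes, so a high share is built in and does not bear on the difference between the genotypes. Mcm5 is shown as an example, because its promoter holds matches on both strands that overlap. The 180 bases before its start site, at chr8:75109329-75109508 on the plus strand of RefSeq GRCm38.p6, are printed 5′ to 3′ with the overlapping matches in capitals, the second of which begins 149 bases before the start site.
Mcm5: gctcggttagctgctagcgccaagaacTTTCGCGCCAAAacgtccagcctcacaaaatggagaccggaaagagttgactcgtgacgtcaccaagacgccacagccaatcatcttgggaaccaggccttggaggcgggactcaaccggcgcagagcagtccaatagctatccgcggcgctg

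Mitosis genes had 8 of 85 probe sets higher in p53_null and 6 lower (median 0.11), close to the shares of all probe sets. With array medians set to 0 there were 13 higher and 1 lower (median 0.34). Pttg1, the securin that holds sister chromatids together until anaphase, was at 2.17 ± 0.27 by 1 probe set and −0.18 ± 1.15 and 0.07 ± 1.31 by the others. The condensin subunit Ncapd2 differed by 1.72 ± 0.22. Cks1b, a kinase cofactor, was at 2.47 ± 0.36 and 0.17 ± 0.60, and Racgap1, which acts in cytokinesis, at 1.89 ± 0.32 and 0.04 ± 0.50. The 6 lower ones, named after their values were seen, were the proliferation marker Mki67 (−0.81 ± 0.25), the mitotic kinase Plk1 (−0.98 ± 0.31), the centromere proteins Cenpa (−1.38 ± 0.36) and Cenpf (−2.04 ± 0.70), the condensin subunit Ncaph (−1.37 ± 0.38) and the microtubule regulator Stmn1 (−1.28 ± 0.43), whose second probe set was at −0.52 ± 0.78. The second probe sets of Cenpf and Ncaph were at −0.27 ± 0.89 and 0.67 ± 1.25, so those of Ncaph did not share a direction. The higher count was 5 without pRb_null replicate 1. The lower count was from 1 to 3 without any p53_null, pRb_null or double_null array.

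Among 56 probe sets of p53 target genes, 7 were lower in p53_null and 2 higher, with a median of −0.11. Over all probe sets 9.41% were lower and 6.81% higher, so the list as a whole was near the background. The arrest genes held 4 of the lower ones among 12 probe sets, with a median of −1.10 and 0 higher. Cdkn1a, the p21 inhibitor of cyclin-dependent kinases, scored −1.72 and −0.98 in p53_null and 0.58 and 0.41 in pRb_null (−1.85 ± 0.29, limma adjusted p = 0.14), with control at 1.07 and 1.12. Its second probe set was at −0.44 ± 0.21, with p53_null at −0.61 and −0.55 and control at −0.55 and −1.09. By that probe set p53_null was not below control, and double_null was highest at 1.67 and 1.42. Btg2, an antiproliferative gene that also counts among the immediate early genes, scored −1.39 and −1.43 against 0.89 and 1.10 by 1 probe set (−2.41 ± 0.45) and differed by −2.18 ± 0.57 by the other. Dram1, a regulator of autophagy, differed by −0.92 ± 0.14 and the nuclease Aen by −1.99 ± 0.52, −1.36 ± 0.53 and −0.46 ± 0.48. The higher ones were 2 probe sets of Sesn1, a stress-induced inhibitor of growth signalling (2.16 ± 0.64 and 2.13 ± 0.67), whose remaining probe set was at 1.69 ± 0.88. Without either p53_null array or without pRb_null replicate 1 the lower ones were 4. Among 40 probe sets of cell cycle regulators, 5 were lower and 3 higher, also near the shares of all probe sets. Cdkn1c, the inhibitor p57, differed by 2.24 ± 0.33, opposite to Cdkn1a, and the cyclin Ccnd2 by −1.20 ± 0.21 by 1 of 7 probe sets. The lower count was 3 without p53_null replicate 2.

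Beyond the lists, genes were sought whose probe sets all differed in the same direction. Their results rest on more than 1 probe set, but these were read from the same arrays and pools and are not replicates. Of 4958 genes with 2 or more probe sets, 42 had all of them higher in p53_null and 72 all lower at an unadjusted p under 0.05, and 79 genes had such probe sets in both directions. The first of those higher were Capn6, a calpain without protease activity, at 2.14 ± 0.34 and 2.46 ± 0.18, and Glo1, the glyoxalase that detoxifies methylglyoxal, at 2.15 ± 0.31, 1.63 ± 0.28 and 2.17 ± 0.15. Others were the serpin Serpinb1a (2.45 ± 0.12 and 2.05 ± 0.38), the pyruvate dehydrogenase kinase Pdk1 (2.07 ± 0.36 and 2.11 ± 0.41) and the lysosomal protein Psap (2.15 ± 0.53 and 1.18 ± 0.28). Dpysl3 had 3 probe sets, at 2.17 ± 0.53, 1.93 ± 0.26 and 2.10 ± 0.35. Sec61a2, Tm6sf1, D17H6S56E-5 and Hdc completed the 10, with differences from 1.89 to 2.31.

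Of the 10 lower, Cap1, Krtap16-3 and Car3 have been given. Slc25a10, the dicarboxylate carrier of mitochondria, scored −1.69 and −1.41 in p53_null and 0.92 and 0.90 in pRb_null by 1 probe set (−2.46 ± 0.13) and differed by −1.93 ± 0.29 by the other. Prelp, a leucine-rich matrix protein, was at −2.46 ± 0.21 and −2.05 ± 0.33, and Pfkfb3, a regulator of glycolysis, at −1.83 ± 0.24 and −1.89 ± 0.32. Ccl9, a chemokine, was at −1.53 ± 0.19 and −1.57 ± 0.25. Tecr, the last enzyme of very long chain fatty acid elongation, differed by −2.16 ± 0.38 and −2.31 ± 0.34, and Extl3 and Spesp1 by −2.45 to −1.62.

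Control arrays take no part in the difference, but their place was read from the same fit. Among the 3681 probe sets with an unadjusted p under 0.05, the control mean lay between the means of the single losses for 2531 (68.8%). These probe sets were chosen for a wide gap between those means, which makes a place between them likelier by itself. It lay beyond pRb_null for 786 and beyond p53_null for 364. It was nearer to pRb_null than to p53_null for 61.2% of them and for 54.9% of all probe sets. Hair genes, mast cell genes, Gjb6 and Slurp1 were cases in which control lay nearer to pRb_null, and white fat genes were cases in which it lay in the middle.

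Markers of other tissues were counted in the same way, beside 9.41% lower and 6.81% higher over all probe sets. Of 118 oxidative phosphorylation probe sets, 20 were lower in p53_null and 5 higher (median −0.58), with the complex I subunit Ndufa3 at −2.21 ± 0.32 and −2.30 ± 0.43. The lower count was 11 without p53_null replicate 1 or pRb_null replicate 1, and the higher count was from 1 to 3 without either control array, either p53_null array or pRb_null replicate 1. Melanocyte genes had 5 of 24 lower and 1 higher, with the endothelin receptor Ednrb at −2.45 ± 0.38 and −1.86 ± 0.80. The other lower ones were of Slc45a2, Trpm1 and Mc1r. The higher one was of Kit (1.84 ± 0.43), which is also counted with the mast cell genes. The pigment genes Pmel (−0.02 ± 0.21), Dct (0.32 ± 0.18), Tyr and Tyrp1 (from −0.64 to 0.17) did not pass by any probe set. The lower count was 2 with 1 probe set per gene and 3 with only the 4 arrays compared. Nerve genes had 5 of 36 lower, 4 of them probe sets of the myelin gene Mbp (from −1.70 ± 0.28 to −1.22 ± 0.09), and 1 higher. The remaining Mbp probe sets, from −1.93 ± 0.79 to 0.32 ± 0.53, did not pass. The higher one was of Mag, also a myelin gene, at 2.26 ± 0.53. The lower count was 2 with 1 probe set per gene. Endothelial genes had 5 of 29 higher and 2 lower, a count that was 1 without either p53_null array and 3 without any control or double_null array. Ribosomal protein genes had 7 of 91 in each direction. The higher count was 4 without p53_null replicate 2 and 12 without pRb_null replicate 2, and the lower count was from 1 to 3 without any array but pRb_null replicate 2 and 1 with array medians set to 0. Blood genes had 1 of 27 in each direction.

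The animals' sex and the array controls were read beside these results. Kdm5d, a Y-linked gene, scored lower in p53_null by all 3 probe sets (−2.31 ± 0.49, −1.98 ± 0.80 and −1.30 ± 0.62), while the Y-linked Uty was at −0.25 ± 0.36 and −0.38 ± 0.62 and Eif2s3y at −0.94 ± 0.56. Xist, the RNA that coats an inactive X, was at 1.16 ± 0.53, 0.72 ± 0.35 and −0.15 ± 0.31. The part of the pools' sex in the differences was not tested. Of the array's control probe sets, 2 of the 45 bacterial ones were higher in p53_null and 0 lower (median 0.61), and 1 of the other 19 was higher and 6 lower (median −0.71), with 0 called and 9 of all 64 at an unadjusted limma p under 0.05.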

How the data were processed

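RNA of whole skin from 8 pools was measured on 8 arrays, 2 per genotype. The submitters' processing notes list RMA, without a version, and no other tool. What was deposited is a standardized score per probe set: tested on the file, each of the 22690 rows has mean 0 and SD 1 within 1e-06. Whether the authors took logarithms first was not stated in the labels. Gene symbols came from the platform annotation: 20393 probe sets had 1 symbol, 691 several and 1606 none, and only those with 1 were named.

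All 8 arrays entered a linear model (limma 3.58.1, R 4.3.3) with 1 mean per group, 4 residual degrees of freedom, with the ordinary statistic and Benjamini-Hochberg adjustment over all probe sets. The fit was tested on simulated data. Precision is limited by the number of arrays. The 27 gene lists, the members and the test were chosen with earlier results of these data known, so lists are described by counts at an unadjusted p under 0.05 and medians, with no test. Named genes were Rb1, up to 10 probe sets per direction by the adjusted p, the first 10 genes per direction with all probe sets alike, and up to 4 per list (8 for lists that lead) by smallest p. Other names, the muscle grouping, the Lce and Sprr families and the TATAAA motif were chosen after their values were seen. The alternatives were the moderated test, only the 4 arrays, quantile normalization, array medians at 0, a replicate block, array weights, 1 probe set or the mean per gene, and leaving out each array. Plots used Python 3.11.15, pandas 2.3.3 and matplotlib 3.10.9.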

Additional observations from a re-analysis of the deposited data

How the results depend on the processing

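The counts at the adjusted threshold (3 higher and 10 lower in p53_null) were 0 in both directions with limma's moderated test, with only the 4 arrays compared, with quantile normalization and without any 1 of the arrays (0 to 0). With 1 probe set per gene or array weights 6 were higher, with probe sets averaged per gene 11, and with array medians set to 0 there were 3 lower. Counts at an unadjusted p under 0.05 were 849 higher and 1205 lower with 1 probe set per gene, and 853 and 1236 with the average, where fewer features were tested. With 1 array left out they ran from 931 to 1488 higher and from 1216 to 2179 lower. Replicate numbers did not pair the arrays (correlation of same-numbered deviations −0.068), and a replicate block gave 0 called in either direction.

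The medians of 8 lists had 1 sign in every alternative run that could move them, apart from mitosis, which reached 0.00. A median difference is set by the 4 arrays compared, so several runs left it unchanged by design. These were the moderated test, only the 4 arrays, the replicate block, and leaving out a control or double_null array. Array weights, which were equal within a genotype, also could not change it. With array medians set to 0 and quantile normalization they were −0.07 and −0.12 for E2F-regulated replication, 0.34 and 0.36 for mitosis, −0.81 and −0.86 for hair keratins, −0.86 and −0.91 for keratin-associated proteins, −0.74 and −0.78 for muscle, −1.08 and −1.18 for adipocytes, 1.87 and 1.88 for mast cells, and 0.84 and 0.80 for fibroblasts. With 1 probe set per gene they were −0.41 for replication, 1.39 for mast cells and 0.51 for fibroblasts, and with the average 1.43 for mast cells and −0.78 for muscle. With 1 array left out they ran from −0.47 to −0.30 for replication, 0.00 to 0.38 for mitosis, −1.06 to −0.97 for hair keratins, −1.13 to −0.85 for muscle, −1.30 to −1.04 for adipocytes, 1.51 to 2.01 for mast cells and 0.46 to 0.68 for fibroblasts. The Rb1 difference ran from −0.08 to 1.07, and its sign turned without pRb_null replicate 1. With the moderated test, counts at an unadjusted p under 0.05 that moved by over 1.5 times and are not given above were 4 higher for macrophages, and 7 lower for stress keratins and alarmins and 3 lower for sebaceous gland, nerve, mitosis and cell cycle regulators. The causes were not tested. Of the 904 values of single named probe sets under alternatives, 721 kept direction and side of the threshold, 169 lost the threshold, 13 gained it and 1 reversed. Only the 13 probe sets called in the main fit could lose the threshold. The 721 are therefore mostly values of probe sets that passed in neither run, and they do not make the calls stable. A filter on dim probe sets could not be run, since scores hold no level.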
